A study of Mus musculus with 12 samples.

Results

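Keratin genes were followed in bulk RNA-seq profiles of 12 mouse melanoma tumors. The members were all protein-coding genes of the count table whose mouse symbol is Krt followed by a number and at most 1 letter. This gave 53 genes of 21974 protein-coding genes and 55487 identifiers in all, and left out 1 keratin-named pseudogene, Krt74. All 12 tumors carried the BrafCA allele, a Braf allele that recombination turns into an active kinase, together with floxed Cdkn2a (BrafCA;Cdkn2af/f). Of these, 6 had an intact Arf6 gene and are called wild type, and 6 carried floxed Arf6 in addition (BrafCA;Cdkn2af/f;Arf6f/f) and are called Arf6-null. Arf6 encodes a small GTPase of membrane traffic. No source used here gives the promoter that drove recombination, the age of the mice or whether each tumor came from its own animal. Every p-value therefore refers to the spread among these libraries, part of which may be technical.

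Keratins are the intermediate filament proteins of epithelial cells. Acidic type I and basic type II keratins pair with each other, and the gene pairs in use mark the kind of epithelium: Krt8 with Krt18 in simple, single-layered epithelium, Krt5 with Krt14 in the basal layer of the epidermis, Krt1 with Krt10 above it, and further sets in the hair follicle. Melanocytes are not epithelial cells and rely mainly on vimentin, another intermediate filament protein, and simple keratins are known from some melanomas. By number the members divided into 28 type I and 25 type II genes. In GRCm38 coordinates 27 members lay on chromosome 11 and 26 on chromosome 15. Krt18 was the 1 type I member on chromosome 15, next to Krt8.

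The targeted gene Arf6 had a mean level of 111 ± 24.9 CPM (CPM is a gene's count relative to the scaled library size; SD, n = 6) with the intact gene and 18.3 ± 3.73 CPM (n = 6) with the floxed one, and the genotypes did not overlap. Library totals ran from 21007954 to 45688253 counts. Library numbers in the titles were 1 to 6 for wild type and 19 to 24 for Arf6-null, so anything that goes with that numbering cannot be told apart from the genotype. A second number in the titles was 5526 to 7657 in wild type, except 20681 in wild-type replicate 5, and 19836 to 20570 in Arf6-null tumors. In wild-type replicates 3, 4 and 5 the summed level of 19 skeletal muscle markers was 3097, 1915 and 4241 CPM, against 9.64 to 290.1 CPM in the other 9 libraries. Melanocyte markers were low throughout: 7 of them summed to 9.94 to 31.3 CPM, and Mlana had no count in any library. In such bulk samples fewer cells of a type and less RNA per cell cannot be told apart.

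The sequences before the start of 5 keratin genes are shown because the results below turn on these genes: Krt8 and Krt18 as the neighboring pair of simple epithelium, and Krt20, Krt23 and Krt76 as the members with the next highest levels per length. Each is the stretch of 250 bases before the RefSeq start, 5′ to 3′ on the strand of the gene, from GRCm38.p6: chr15:102004343-102004592 (minus strand), chr15:102027966-102028215 (plus), chr11:99438154-99438403 (minus), chr11:99493121-99493370 (minus) and chr15:101892921-101893170 (minus). Capitals mark matches on either strand to the motif of the TATA box, spelled TATAAA, of the GC box, spelled GGGCGG, of the CCAAT box, of the factor AP-1, spelled TGANTCA, or of the factor AP-2, spelled GCCNNNGGC.
Krt8: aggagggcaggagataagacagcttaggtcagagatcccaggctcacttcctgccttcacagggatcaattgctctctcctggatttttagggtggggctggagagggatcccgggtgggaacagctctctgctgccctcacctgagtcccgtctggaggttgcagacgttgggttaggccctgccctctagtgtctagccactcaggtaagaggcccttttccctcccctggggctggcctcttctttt
Krt18: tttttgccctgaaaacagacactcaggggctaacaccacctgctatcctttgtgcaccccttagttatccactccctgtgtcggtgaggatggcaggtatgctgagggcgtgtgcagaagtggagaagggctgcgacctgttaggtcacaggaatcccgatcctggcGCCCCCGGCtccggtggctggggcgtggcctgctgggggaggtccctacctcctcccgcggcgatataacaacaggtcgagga
Krt20: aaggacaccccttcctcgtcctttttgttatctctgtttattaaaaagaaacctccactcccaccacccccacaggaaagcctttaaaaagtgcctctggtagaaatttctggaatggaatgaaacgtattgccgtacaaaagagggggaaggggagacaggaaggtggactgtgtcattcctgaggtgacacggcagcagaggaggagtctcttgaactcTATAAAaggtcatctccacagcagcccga
Krt23: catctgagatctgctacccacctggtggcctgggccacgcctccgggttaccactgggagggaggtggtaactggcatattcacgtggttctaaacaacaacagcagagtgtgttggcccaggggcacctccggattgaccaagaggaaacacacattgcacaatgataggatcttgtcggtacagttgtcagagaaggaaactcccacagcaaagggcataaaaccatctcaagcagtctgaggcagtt
Krt76: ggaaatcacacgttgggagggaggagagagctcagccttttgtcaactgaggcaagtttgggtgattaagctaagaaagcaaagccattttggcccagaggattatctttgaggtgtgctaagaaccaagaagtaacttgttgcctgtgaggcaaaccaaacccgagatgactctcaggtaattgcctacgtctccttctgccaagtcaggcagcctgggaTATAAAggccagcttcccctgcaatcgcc
TATAAA began at position -29 from the start in both Krt20 and Krt76. In the Krt18 stretch 1 AP-2 match began at position -83, and neither the Krt8 nor the Krt23 stretch held any of the 5 motifs. The promoter table held 36 of the 53 keratin genes. TATAAA was present in 45.9% of their 37 promoter stretches and in 12.4% of all 32851, and GGGCGG in 5.41% against 32.7%. CCAAT was present in 40.5% against 33.8%, the AP-1 motif in 5.41% against 6.75% and the AP-2 motif in 13.5% against 13.7%. These motifs do not overlap in the stretches shown, and a match describes letters, not use.

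The keratin RNA of these tumors came mostly from few genes. Krt8, Krt18, Krt20 and Krt76 together held 92.7% to 99.4% of all keratin counts of a library. The first 3 are keratins of simple epithelium, a class that held 76.2% to 99.5% of the keratin counts, while Krt76 is a mucosal keratin that held 0.118% to 19.4%. Per kilobase of exon the mean level over the 12 libraries was 367 CPM for Krt8, 178 for Krt18, 107 for Krt20 and 25.3 for Krt76, and it was 4.12 for Krt23 and 2.26 for Krt12. Summed over members, keratin RNA was at 218 to 2499 CPM in wild-type and at 745 to 2419 CPM in Arf6-null libraries, so the ranges overlapped. Only 11 of the 53 members had a mean of at least 1 CPM. For comparison, Vim, which encodes vimentin, stood at 5168 ± 751 CPM (wild type) and 4880 ± 1129 CPM (Arf6-null).

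**Figure D1:**
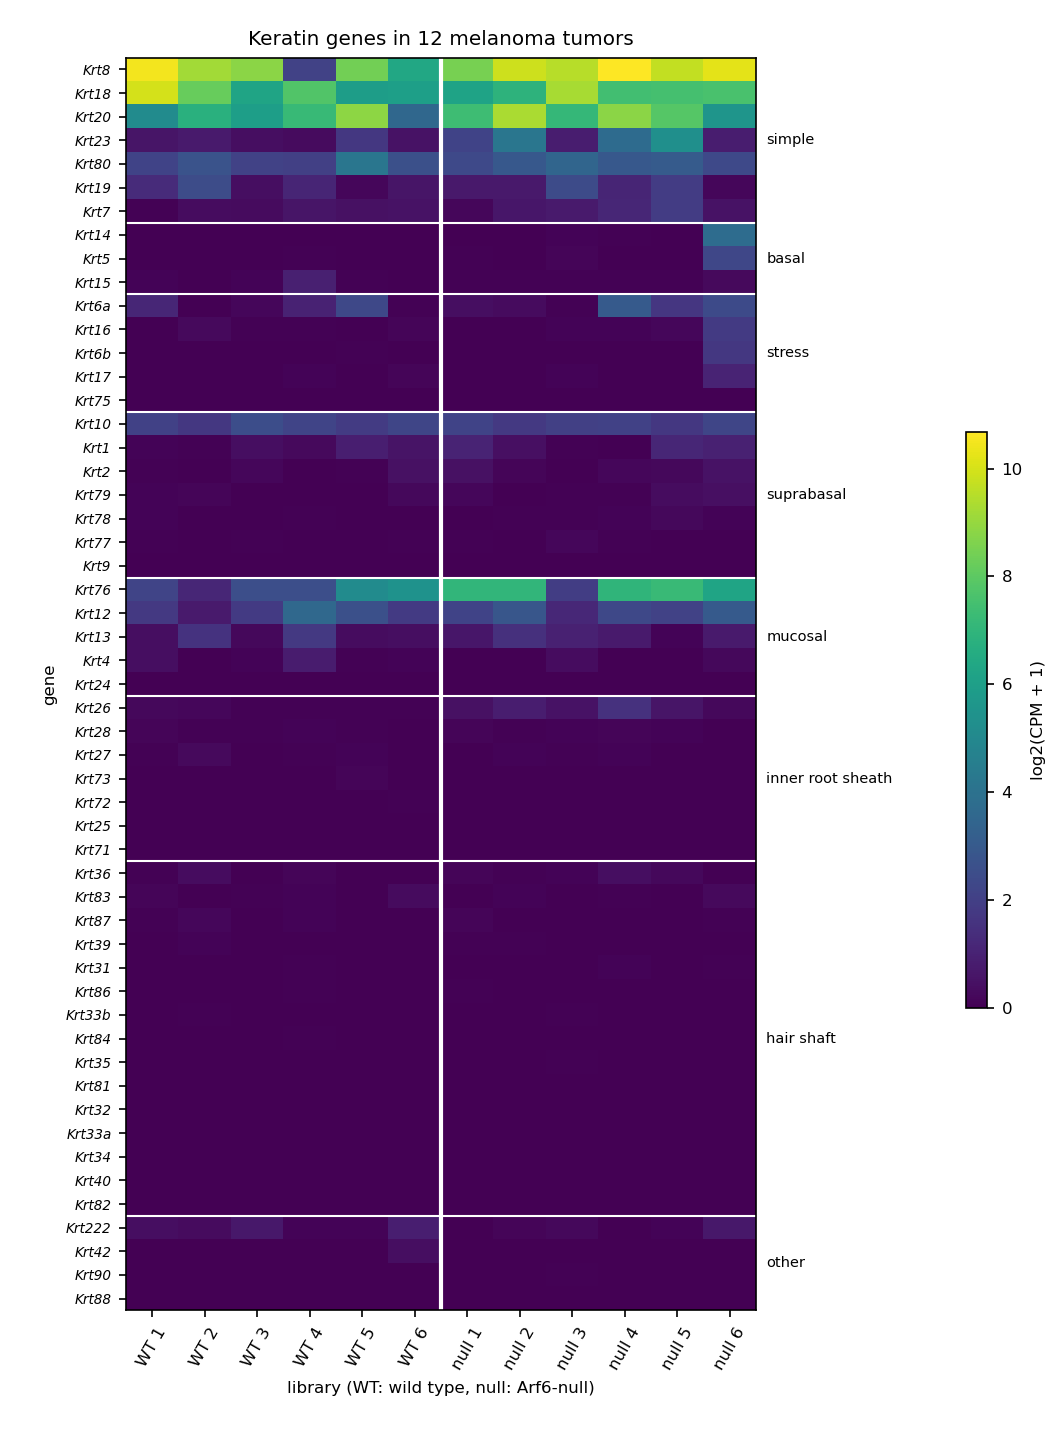
Level of each of the 53 keratin genes (rows, by class) in each of the 12 libraries (columns; WT is wild type, null is Arf6-null), as log2(CPM + 1) in color. Krt8, Krt18 and Krt20 are bright in nearly every column, Krt8 is dark in WT 4, Krt14 stands out in null 6 alone, and the hair shaft rows are dark throughout.

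In the comparison of genotypes 13 of the 53 members had enough counts to be tested, and none passed edgeR's quasi-likelihood test at an adjusted p of 0.05. Over all 16225 tested genes 1.15% passed, of which the higher ones made up 0.586% and the lower ones 0.561% of those tested. At an unadjusted p under 0.05 there were 3 members, Krt23, Krt76 and Krt7, all higher in Arf6-null tumors, where 23.4% of all tested genes passed in either direction and 11% in this one. The Wald test of DESeq2 called 3 members at an adjusted p of 0.05, Krt23, Krt76 and Krt26, all of them higher, with 11% of the 20208 genes that received an adjusted p called and 4.80% called higher. Krt26 was not among the 13 tested members. With limma-voom and sample quality weights no member passed. Of the 13 tested members 10 had a positive and 3 a negative log2 fold change (Arf6-null over wild type), with a median of 0.94, against a median of -0.03 over all tested genes, of which 47.2% were positive. No tested member had genotypes that did not overlap in CPM; over all tested genes 1.15% lay wholly higher and 1.21% wholly lower in Arf6-null tumors.

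**Figure D2:**
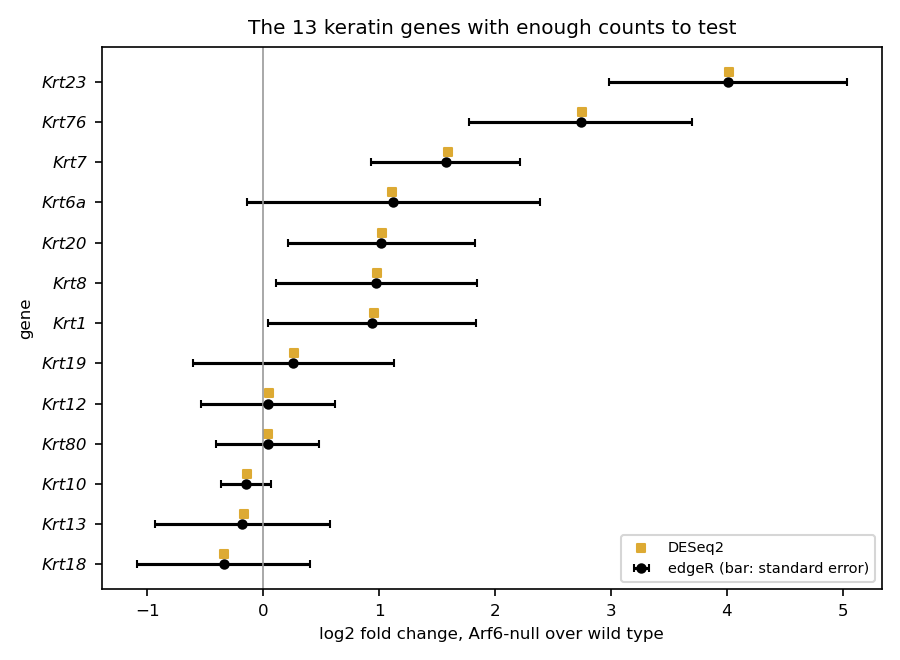
Log2 fold change of the 13 tested keratin genes, Arf6-null over wild type, with edgeR values as circles and standard errors as bars, and DESeq2 values as squares. Krt23 at 4.01 and Krt76 at 2.74 lie farthest to the right, and Krt18, Krt13 and Krt10 lie below 0.

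Krt8, the type II keratin of simple epithelium, was the most abundant member. In wild-type tumors it ran from 3.35 through a median of 398 to 1436 CPM, and in Arf6-null tumors from 360 through 888 to 1636 CPM. All 6 Arf6-null tumors were in the upper range that wild-type replicates 1, 2 and 3 also reached, while wild-type replicates 5, 6 and 4 were lower than any of them. Mean levels of 485 ± 516 CPM (wild type) and 953 ± 433 CPM (Arf6-null) gave a log2 fold change of 0.97 (SE 0.87), which did not pass (edgeR adjusted p = 0.530) and was 1.69 without wild-type replicate 1, the highest of its genotype. Of the 50-base words of Krt8 transcripts 29.7% also occur in other genes, 26.9% in the pseudogene Krt8-ps, so reads can be split between them.

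Its type I partner Krt18 had a slightly lower mean in Arf6-null tumors, 226 ± 196 against 286 ± 367 CPM. It ran from 60.2 through 147 to 1010 CPM in wild type and from 72.1 through 177 to 614 CPM in Arf6-null tumors. Wild-type replicate 1 and Arf6-null replicate 3 were the highest of their genotypes, and the ranges overlapped almost fully. The change of -0.34 on the log2 scale (SE 0.75, adjusted p = 0.817 by edgeR) turned to 0.67 without wild-type replicate 1 and was -0.94 without Arf6-null replicate 3.

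The pair did not keep a fixed ratio. Per kilobase of exon Krt8 was 0.964 to 4.51 times Krt18 in 5 wild-type libraries and 0.890 to 7.0 times in the Arf6-null libraries. In wild-type replicate 4 the ratio was 0.0112. That library held 102 counts of Krt8 and 6677 of Krt18, and its Krt8 level of 3.35 CPM was 25.2-fold below the lowest of the other 11 libraries. Krt18, whose gene lies 23.7 kb away, was at 219 CPM there, inside the range of the others. Gm36026, a long noncoding RNA gene that overlaps Krt8 on the other strand, had 1 count in this library and 32 to 274 in the others; with the strand setting of the counting not given, its reads and those of Krt8 cannot be told apart. Within 200000 bases on either side of the pair 12 protein-coding genes were tested. None of the 11 besides Krt8 was lower in this library than in all others. Gm36026 is not protein coding and was not among these genes. Of 3272 tested genes at 50 CPM or more in each of the other 11 libraries, Krt8 was the 1 gene that fell this far below them in wild-type replicate 4. These checks were chosen after the Krt8 value was seen. Without this library the log2 fold change of Krt8 was 0.71 (edgeR adjusted p = 0.517).

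**Figure D3:**
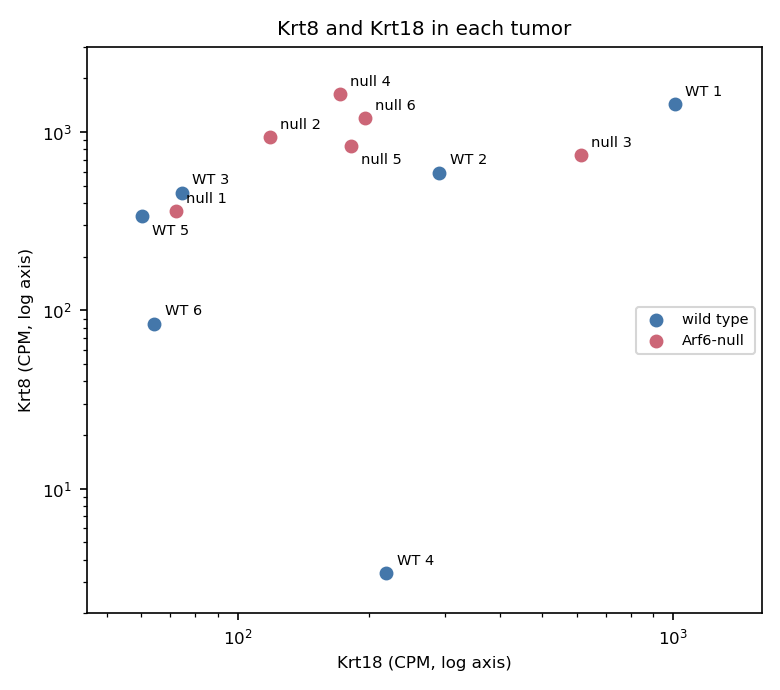
Krt8 against Krt18 in each tumor, in CPM on log axes, with wild-type libraries in blue and Arf6-null libraries in red. WT 4 lies far below the rest, at 3.35 CPM of Krt8 and 219 CPM of Krt18.

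In 11 libraries, all but wild-type replicate 4, Krt8 was the largest part of the type II sum. Summed per kilobase, type II keratins were 0.673 to 3.68 times type I keratins in 11 libraries and 0.0224 times in wild-type replicate 4, where type I keratins were at 238 and type II keratins at 5.35 CPM per kilobase. Its type I RNA was mostly Krt18 and Krt20, and no other type II member was above 4.93 CPM, the level of Krt76.

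Across tumors of 1 genotype the textbook partners did not follow each other at a level these numbers can show. Of 9 listed pairs 3 had both members tested, which gave 6 relations of log2 CPM with n = 6 each. None passed an exact permutation test over 720 pairings (two-sided, Benjamini-Hochberg over the 6). For Krt8 and Krt18 Pearson's r was 0.22 (exact p = 0.651, adjusted 0.782) and Spearman's rho 0.60 (exact p = 0.242, adjusted 0.725) in wild type, and r was 0.32 (exact p = 0.522, adjusted 0.782) and rho 0.14 (exact p = 0.803, adjusted 0.803) in Arf6-null tumors. Without the 2 libraries farthest from the median Krt8 level r was 0.96 in wild type (replicates 4 and 6 left out) and -0.56 in Arf6-null tumors (replicates 1 and 4 left out), so neither value held without those libraries. For Krt1 and Krt10 r was 0.29 and -0.13, and for Krt7 and Krt19 it was -0.32 and 0.55, in wild type and Arf6-null (exact p from 0.232 to 0.815, adjusted from 0.782 to 0.815). The corresponding rho was 0.37 and -0.14 for the former and -0.20 and 0.77 for the latter pair (exact p from 0.103 to 0.803, adjusted from 0.617 to 0.803). Without the 2 libraries farthest from the median r became 0.59 and 0.37 for the former and -0.47 and 0.57 for the latter pair.

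Krt20, a type I keratin known from intestinal and urothelial surfaces and from Merkel cells, was the third most abundant member. It ran from 10.96 through 85.6 to 459 CPM in wild type and from 46.1 through 198 to 634 CPM in Arf6-null tumors, and the ranges overlapped widely (log2 fold change 1.02, SE 0.80, edgeR adjusted p = 0.471). Without wild-type replicate 5, the highest of its genotype, the log2 fold change was 1.94 (edgeR adjusted p = 0.139). Without Arf6-null replicate 2, the highest of the other genotype, it was 0.59 (edgeR adjusted p = 0.723). Of 3 Merkel cell markers Atoh1, their defining factor, had no count in any of the 12 libraries, and Isl1 reached 5.82 CPM. Sox2, which is not particular to them, had means of 104 ± 27.1 (wild type) and 163 ± 61.6 CPM (Arf6-null). The epithelial genes Epcam, at 2.58 ± 2.37 and 1.63 ± 0.769 CPM, and Cdh1, at 3.72 ± 0.959 and 2.91 ± 0.926 CPM, were low in both genotypes.

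Krt23, a type I keratin of simple epithelia, had the largest difference among tested members. In wild-type tumors it was at 0.230 to 2.35 CPM with a median of 0.467, and in Arf6-null tumors it was at 3.47, 17.1, 0.802, 12.3, 38.4 and 0.784 CPM in replicates 1 to 6. Arf6-null replicates 1, 2, 4 and 5 were above every wild-type tumor, and replicates 3 and 6 lay within the wild-type range. This made a log2 fold change of 4.01 (SE 1.03), just outside the threshold (edgeR adjusted p = 0.0629). It was past the threshold in 2 of the 12 fits that each leave out 1 library, those without wild-type replicate 5 (4.80, adjusted p = 0.0421) and without Arf6-null replicate 6 (4.26, adjusted p = 0.0375), and with DESeq2 (4.02, adjusted p = 0.000288). Without Arf6-null replicate 5, the highest tumor, it was 3.19 (adjusted p = 0.0917). Over all alternatives the adjusted p ran up to 0.269, with Y-linked expression as a covariate.

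Krt76, a type II keratin of the palate and other oral surfaces, was the fourth member by level. Wild-type tumors were at 3.62, 1.19, 4.90, 4.93, 34.4 and 42.3 CPM, and Arf6-null tumors at 130, 128, 2.79, 125, 149.8 and 73.9 CPM, in replicates 1 to 6. All Arf6-null tumors but replicate 3 were above every wild-type tumor. Means of 15.2 ± 18.1 (wild type) and 102 ± 54.6 CPM (Arf6-null) gave a log2 fold change of 2.74 (SE 0.96), with an adjusted p of 0.124 by edgeR and 0.0185 by DESeq2. Without Arf6-null replicate 3 the log2 fold change was 2.99 (edgeR adjusted p = 0.0889), and without wild-type replicate 6 it was 3.37 (adjusted p = 0.122). Krt4 and Krt13, the pair of mucosal epithelium, did not accompany it: Krt13 was at 0.907 ± 1.01 and 0.803 ± 0.556 CPM (log2 fold change -0.18, SE 0.75), and Krt4 had at most 23 counts in a library. Krt12, the keratin of the cornea, was at 4.12 ± 3.80 and 4.24 ± 2.13 CPM (log2 fold change 0.04, SE 0.58). Of the 50-base words of Krt12 transcripts 42.0% also occur in the antisense gene A830036E02Rik, which had 4 counts in all.

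**Figure D4:**
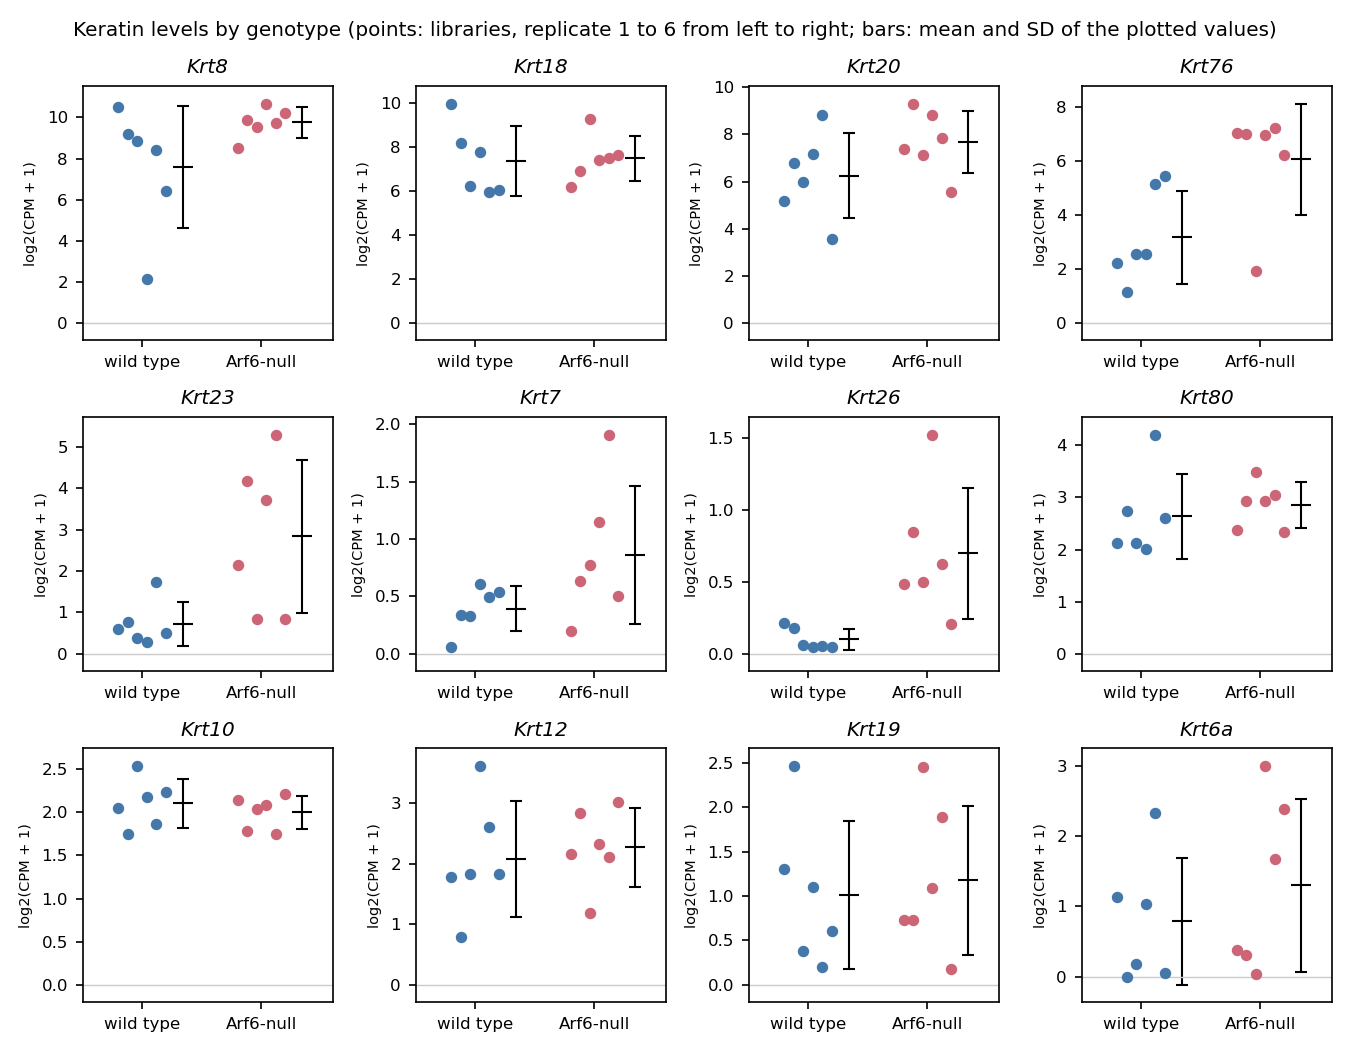
Level of 12 keratin genes by genotype as log2(CPM + 1), 1 panel per gene with its own axis; points are libraries and bars give mean and SD of the plotted values (n = 6 each). Krt76 and Krt23 are higher in most but not all Arf6-null tumors, and Krt10 is level in all 12.

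The remaining simple keratins were low. Krt80, a type II keratin found in several epithelia, spanned 3.06 to 17.5 CPM (wild type) and 4.05 to 10.2 CPM (Arf6-null; log2 fold change 0.04, SE 0.44). Krt19, a small type I keratin of ducts, was at 0.149 to 4.53 and 0.131 to 4.48 CPM (log2 fold change 0.26, SE 0.87). Krt7, another type II keratin of ducts, spanned 0.0398 to 0.526 CPM (wild type) and 0.151 to 2.76 CPM (Arf6-null), with Arf6-null replicates 2, 3, 4 and 5 above every wild-type tumor (log2 fold change 1.57, SE 0.65, edgeR adjusted p = 0.170). Without Arf6-null replicate 5, the highest, it was 0.91 (adjusted p = 0.350).

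Among epidermal keratins the suprabasal Krt10 varied little, spanning 2.35 to 4.82 CPM (wild type) and 2.35 to 3.63 CPM (Arf6-null; log2 fold change -0.15, SE 0.22, edgeR adjusted p = 0.706). Its partner Krt1 was at most 1.24 CPM in any library (log2 fold change 0.94, SE 0.90). Krt2, Krt77, Krt78 and Krt79 had at most 16 counts in a library, and Krt9, the keratin of palms and soles, had none. Krt6a, a type II keratin induced by wounding, spanned 0 to 4.03 CPM (wild type) and 0.0297 to 7.03 CPM (Arf6-null; log2 fold change 1.12, SE 1.26). It was 0.39 without Arf6-null replicate 4 and 2.27 without wild-type replicate 5, the highest of each genotype. Of its 50-base words 40.2% are shared with Krt6b, so reads can be split between these genes.

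The basal keratins Krt14 and Krt5 and the wound-induced or companion-layer keratins Krt16, Krt6b and Krt17 had most of their counts in 1 tumor, Arf6-null replicate 6. Krt14 had 483 counts there (12.6 CPM), at most 3 in any other Arf6-null library and none in the 6 wild-type libraries, which over the group allows 0.0187 CPM at a floor of 3 counts. Its partner Krt5 had 147 counts there and at most 4 elsewhere, Krt16 had 95 and at most 6, Krt6b 87 and at most 1, and Krt17 41 and at most 3. Krt6a was not so restricted, with 161 counts in that library and 213 in Arf6-null replicate 4. Krt15, the other basal keratin, went the other way, with 28 counts in wild-type replicate 4, 8 in Arf6-null replicate 6 and at most 2 in any other library. None of these 6 passed the count filter, and in the edgeR fit without it none was called between genotypes (adjusted p from 0.170 for Krt5 to 0.514 for Krt15). Krt75, a companion-layer keratin, had no count in any library.

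Of 12 keratinocyte markers outside the family 3 had their highest level in Arf6-null replicate 6: Dsg3, a desmosomal cadherin of deep epidermis, with 22 counts there against at most 1 elsewhere, Krtdap, a keratinocyte differentiation gene, with 35 against at most 2, and Perp, a desmosomal membrane protein, with 2.12 against at most 1.91 CPM. Flg had no count in any library, and the other markers, among them Dsc3, Dsp, Sfn, Epcam and Cdh1, were highest in other tumors. Trp63, the master regulator of stratified epithelium, had 7 counts there and up to 72 elsewhere. Summed over the 12 markers the level was 14.8 to 24.3 CPM in wild type and 17.3 to 32.1 CPM in Arf6-null, and 20.8 CPM in that tumor. The part of epidermal cells in these keratin counts was not tested.

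Hair keratins were at or near the floor in both genotypes. Of the 15 hair shaft keratins 5 had no count in any library, none exceeded 10 counts in a library, and their sum was at most 0.496 CPM in a wild-type and 0.429 CPM in an Arf6-null tumor. Of 57 keratin-associated protein genes, which encode the matrix of the hair shaft, 54 had no count in any library. A count of 0 over all 12 libraries allows up to 0.00802 CPM at a floor of 3 counts. Of 6 hair follicle markers Foxn1, Hoxc13 and Msx2 had at most 3 counts in a library, Lhx2 at most 13, Padi3 at most 27 (1.07 CPM) and Tchh, a protein of the inner root sheath, at most 47 (1.06 CPM) with counts in all 12 libraries. Among the 7 inner root sheath keratins Krt26 stood apart, as described next.

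Krt26, a type I keratin of the inner root sheath, had too few counts to pass the filter and is singled out after its values were seen, since DESeq2 called it. It had 4, 4, 1, 1, 1 and 1 counts in wild-type and 8, 33, 14, 57, 24 and 6 in Arf6-null replicates 1 to 6, that is 0.0731 ± 0.0569 and 0.700 ± 0.616 CPM. All Arf6-null tumors but replicate 6 were above every wild-type tumor. The log2 fold change was 3.27 with DESeq2 (adjusted p = 0.000419) and 3.22 (SE 0.64) with edgeR on all genes with a count (adjusted p = 0.0475), where 0.381% of 33373 genes were called. It also passed edgeR in the fits without wild-type replicate 2, wild-type replicate 5 and Arf6-null replicate 6, respectively. The other inner root sheath keratins did not accompany it: Krt71 and Krt25 had no count in any library, and Krt27, Krt28, Krt72 and Krt73 at most 6.

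Members without a class were rare as well. Krt222, a keratin-like gene, had 58 counts in wild type and 38 in Arf6-null libraries, Krt42 had 9 counts in wild-type replicate 6 and none elsewhere, Krt90 had 1 count in all and Krt88 none. In all, 11 of the 53 members had no count in any library, and 29 of the 40 untested members never exceeded 10 counts in a library.

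Genes that work with keratins in the cell were compared in the same fit. A gene that did not pass is not thereby shown to be unchanged. Of 23 desmosome and hemidesmosome genes, which anchor keratin filaments, 17 were tested and none passed (median log2 fold change 0.23). Jup, which encodes plakoglobin, was at 71.3 ± 27.6 and 38.1 ± 12 CPM, which is -0.91 on the log2 scale (SE 0.27; adjusted p = 0.0860 by edgeR), and Dsc3, a desmosomal cadherin, at 1.09 ± 1.31 and 7.05 ± 3.59 CPM, which is 2.69 (SE 0.90; adjusted p = 0.112); values of this kind give wild type first. Of 25 epithelial regulators and adhesion genes 12 were tested and none passed (median 0.21). At an unadjusted p under 0.05 edgeR had 5 of the 12 higher and 0 lower, where 11% of all tested genes were higher. DESeq2 called 2 members of this list and 3 desmosome and hemidesmosome genes, with 11% called of all genes that received an adjusted p. Klf4, a transcription factor of barrier epithelium, was at 63.1 ± 20.6 and 124 ± 27.6 CPM with no overlap of the genotypes and a log2 difference of 0.98 (SE 0.24; adjusted p = 0.0595 by edgeR), and Klf5, its relative in basal cells, at 18.5 ± 9.50 and 37.7 ± 17.3 CPM (adjusted p = 0.132).

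In the other lists edgeR called 1 member, a skeletal muscle marker. Of 15 modifiers and linkers of keratin 13 were tested and none passed (median 0.14); Stub1, a ubiquitin ligase of misfolded proteins, was at 121 ± 8.26 and 156 ± 12.5 CPM with no overlap and a log2 difference of 0.36 (SE 0.08; adjusted p = 0.0520 by edgeR), and Txndc9, a cochaperone, at 69.1 ± 8.45 and 87.2 ± 9.31 CPM (adjusted p = 0.0877). Of 16 other intermediate filament genes 11 were tested and none passed (median 0.08); Bfsp1, known from the lens, was at 4.90 ± 2.45 and 14.2 ± 7.01 CPM (adjusted p = 0.0674), and Des, the desmin gene of muscle, at 158 ± 204 and 13.3 ± 10.5 CPM (adjusted p = 0.0844). Of 36 genes on the list of cornified envelope and cornification 10 were tested and none passed (median 0.21). On this list S100a3 was at 1.61 ± 0.549 and 2.51 ± 0.495 CPM and Sprr1a at 2.49 ± 2.41 and 7.33 ± 10.04 CPM. Of 20 genes on the hair follicle list 7 were tested and none passed (median -0.42). Lgr5, a follicle stem cell receptor, was at 10.2 ± 5.66 and 3.74 ± 3.07 CPM. Crnn, which is taken as a follicle gene by this list alone, was at 0.262 ± 0.209 and 1.25 ± 1.51 CPM. Of the 19 skeletal muscle markers all were tested and 1, Pvalb, was called lower, from 25.7 ± 37.3 to 0.170 ± 0.152 CPM (edgeR adjusted p = 0.0392; median -4.74); Ckm was at 95.7 ± 101 and 1.83 ± 1.19 CPM (adjusted p = 0.0562). Over these lists together edgeR called 1 of 88 tested members, and 0 to 22 when single libraries were left out; DESeq2 called 31 members, 18 of them skeletal muscle markers. The shares over all genes were 1.15% for edgeR and 11% for DESeq2. At an unadjusted p under 0.05 edgeR had 13 higher and 25 lower members, where 23.4% of all tested genes passed; 19 of the 25 were the skeletal muscle markers, whose summed level was highest in wild-type replicates 3, 4 and 5.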

How the data were processed

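Polyadenylated RNA of 12 tumors was sequenced from TruSeq Stranded mRNA libraries, per the labels' protocols. The deposited values are raw counts per gene; per the submitters' processing notes they came from STAR 2.7.3a and featureCounts 1.6.3 on GRCm38 (mm10), and DESeq2 1.26.0 is named as well. For the strand setting, reads with several matches and the annotation release, the entry is: not given in the sources used here. Each column was assigned through the library name that its sample title holds. GENCODE M21 gave symbol and biotype for 55227 identifiers; 260 had none. All 66 pairs of libraries differed beyond sampling noise (lowest chi-square per degree of freedom 84.6). Genes were kept by filterByExpr at its minimum of 10 counts, TMM gave the scaling factors, and genotypes were compared over all 16225 kept genes by the robust quasi-likelihood test in edgeR 4.0.16 (R 4.3.3), with Benjamini-Hochberg adjustment and a threshold of 0.05. CPM uses the scaled library sizes, and log2 CPM a prior count of 2. The SE of an edgeR log2 fold change is its absolute value divided by the square root of the F statistic of the test. Levels per kilobase use the union of exons. Alternatives were other scalings, DESeq2 1.42.0, limma 3.58.1 voom, other filters, Y-linked expression as a covariate and each library left out; a fit without the 3 muscle-rich wild-type libraries was chosen after seeing the data. Functions were tested on simulated data. Every member is accounted for. Levels (by library, range or mean) are given for members with a mean of at least 1 CPM or an unadjusted p under 0.05. Of each further list the called members are given, filled to 2 by smallest p. Members, classes and lists were chosen with earlier results of these data known. Shared sequence was counted as 50-base words of GENCODE transcripts found in another gene.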

Additional observations from a re-analysis of the deposited data

Results flagged for a closer look

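Dixon's test was applied to 24 sets of 6 values, 1 gene in 1 genotype each, on the log2(CPM + 1) scale. The genes were the members with a mean of at least 1 CPM or an unadjusted p under 0.05 in edgeR. Chance alone gives about 1 in 20 sets, and 4 sets were singled out. For Krt23, wild-type replicate 5 stood high at 1.74, and its group otherwise spanned 0.299 to 0.761. The same tumor stood high for Krt80 at 4.21, where its group otherwise spanned 2.02 to 2.73. For Krt14, Arf6-null replicate 6 stood high at 3.77 over a span of 0 to 0.123. Krt14 reached a mean of 1 CPM only through this tumor, so its place among the sets singled out is no support. Its wild-type set held only values of 0 and could not be singled out. For Krt76, Arf6-null replicate 3 stood low at 1.92 under a span of 6.23 to 7.24.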

How the results depend on the processing

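The count of keratin genes called, 0 of 13 tested, was 3 with DESeq2 and 1 without the count filter. These 2 fits took in 42 members each, and with DESeq2 not all of them received an adjusted p. Krt26, called in both, was not among the 13. The count was 1 at an adjusted p under 0.1 and 0 to 2 when single libraries were left out. It was 0 under the other scalings, limma-voom, the stricter filter, the Y-linked covariate, a 2-fold limit and without the 3 muscle-rich wild-type libraries. The count over all genes, 186, was 2215 with DESeq2, 931 with limma-voom, 123 with the stricter filter of 10 CPM in 6 libraries, 30 with the Y-linked covariate, 35 without the 3 muscle-rich libraries and 25 to 766 when single libraries were left out. The count over the companion lists, 1, was 31 with DESeq2, whose fit took in 148 members against 88. It was 0 with the Y-linked covariate, 0 without the muscle-rich libraries and 0 to 22 when single libraries were left out. With upper-quartile scaling 41.4% of all calls were higher, against 51.1%. The cause of these differences was not tested.

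Log2 fold changes of Krt8, Krt20, Krt23, Krt76, Krt7, Krt6a and Krt10 kept their sign under every alternative run, from 0.45 to 2.34 for Krt8 and from 2.50 to 4.38 for Krt76. Krt80 turned to -0.0074 and Krt12 to -0.018 with upper-quartile scaling, and Krt19 to -0.84 with the Y-linked covariate and -0.41 without the muscle-rich libraries. When single libraries were left out Krt80 ran from -0.14 to 0.66, Krt12 from -0.18 to 0.66, Krt19 from -0.35 to 1.17 and Krt18 from -0.94 to 0.67. Without the 2 libraries farthest from the median the relation of Krt8 and Krt18 in Arf6-null tumors turned to -0.56 and that of Krt1 and Krt10 to 0.37. No paired analysis was possible because no label links a wild-type to an Arf6-null tumor. Few counts limit the comparison of the hair, basal and wound-induced keratins, most of which did not pass the count filter.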
